A study of Mus musculus with 141 samples.

Results

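Recombinant inbred strains of the AXB and BXA sets, bred from A/J and C57BL/6J, were compared with recombinant inbred strains of the BXD set, bred from C57BL/6J and DBA/2J, by RNA-seq of inguinal white adipose tissue (iWAT), a subcutaneous fat depot, in mice on the HF/HS diet, which is rich in fat and sucrose. Libraries were taken by the strain named in their labels, and 84 of the 141 libraries of the series (67 of females and 74 of males, 82 strains) were used, 20 of AXB/BXA mice and 64 of BXD mice. The AXB/BXA libraries came from 9 females and 11 males of 11 strains, all of the PgnJ series: AXB5, AXB12, AXB13, AXB19, AXB19a, AXB19b, BXA2, BXA7, BXA8, BXA11 and BXA24. The BXD libraries came from 30 females and 34 males of 38 strains, of which 23 were RwwJ strains with 44 libraries and 15 were TyJ strains with 20 libraries. One of the TyJ strains, BXD24/TyJ-Cep290<rd16>/J, carries a mutant *Cep290* allele besides its BXD genome. Libraries of a BXD34/TyJ female and a BXD69/RwwJ female were left out by the rule of the comparison. The parents A/J, DBA/2J and C57BL/6J were each present as 1 female and 1 male library. All mice were switched from chow to the HF/HS diet when 8 weeks old, kept on it for a further 8 weeks and fasted for 4 h, so no library shows the panels on another diet.

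Both panels have C57BL/6J as 1 parent, so that at a locus where A/J and DBA/2J carry alleles of different activity the average of the panels can differ, and at a locus where they carry the same allele it is not expected to. Each recombinant inbred strain is homozygous for 1 parental allele at nearly every locus, and the strains of a panel therefore divide into carriers of either allele. AXB strains descend from an A/J dam and inherited the A/J mitochondrial genome, whereas BXA and BXD strains descend from C57BL/6J dams. AXB19a and AXB19b are sublines of AXB19. The female and the male of 1 strain share a genome and are not independent samples of a panel, and each strain gave at most 1 library of each sex.

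Total estimated counts per library were 11747373 to 39353101 (median 32604972) in AXB/BXA, 12057946 to 46602779 (median 30162689) in BXD and 25281997 to 39543043 in the parents. The Y-linked gene *Ddx3y* separated the sexes in all 90 libraries, with at most 2.26 CPM (read counts normalised to library totals with TMM factors) in females and at least 87.7 CPM in males. Summed CPM of 5 adipocyte markers were 3000 to 31800 (median 22000) in AXB/BXA and 4940 to 39700 (median 19800) in BXD, so the defining markers of adipose tissue were present in every library. Summed CPM of 8 B and T lymphocyte markers were 8.55 to 1390 (median 49.03) in AXB/BXA and 6.3 to 1280 (median 17.7) in BXD, and none of the 8 differed between the panels. In bulk tissue, fewer cells of a type and less RNA per cell cannot be told apart.

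Several libraries stood apart. The AXB12/PgnJ female had the highest level of the 84 libraries in 2875 of 18375 genes (15.6%), against 1026 genes (5.58%) for the library next in this order. It also had the lowest adipocyte marker sum (3000 CPM) and the highest lymphocyte marker sum (1390 CPM). Genes that tell the parents apart were used to compare libraries with their labels: 85 genes in which both DBA/2J libraries differed from all A/J and C57BL/6J libraries, and 43 in which both A/J libraries differed from all others, by at least 1.5 on the log2 scale. The library labelled BXD6/TyJ female was at the DBA/2J level in 4 of 85 genes (4.71%) and at the A/J level in 14 of 43 (32.6%), whereas the other 63 BXD libraries were at the DBA/2J level in 20 to 67.1% and at the A/J level in 0.0 to 13.95%. The library labelled BXA24/PgnJ male was at the DBA/2J level in 26 of 85 genes (30.6%), and the other 19 AXB/BXA libraries in 0.0 to 11.8%. It was at the A/J level in 14 of 43 genes (32.6%), within the 30.2 to 72.1% of those 19 libraries. The first library thus went against its label in both sets of genes and the second in the DBA/2J set alone. The AXB19b/PgnJ female resembled the male of its strain least, with a correlation of 0.07 between their deviations over the 664 genes described next, against a median of 0.52 over 9 AXB/BXA strains and 0.61 over 26 BXD strains. These libraries stayed in the comparison as labelled, and values without them are given where they matter.

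Of 18375 genes tested, 1692 (9.21%) differed between AXB/BXA and BXD at an adjusted p under 0.05 with sex as a covariate, 1033 higher (5.62%) and 659 lower (3.59%) in AXB/BXA. When mice of 1 strain were treated as related, 664 of these genes (3.61%) also passed in the same direction, 386 higher (2.1%) and 278 lower (1.51%), and these are described here as differing in both tests. Their median absolute log2 fold change (log2FC, AXB/BXA minus BXD) was 0.53, with 173 genes at 1 or more and 317 under 0.5, whereas the median log2FC over all genes was 0.02. No gene had panel ranges that did not overlap (0 of 18375, 0.0%), and none did after the libraries labelled BXD6/TyJ female and BXA24/PgnJ male were left out (0.0%). Without those libraries 416 genes were higher and 310 lower in both tests, and 632 of the 664 were among them. Without the AXB12/PgnJ female the numbers were 356 and 233, with 500 of the 664 among them. Without AXB19a and AXB19b they were 237 and 144, with 343 of the 664 among them. The test that treats mice of 1 strain as related took AXB19, AXB19a and AXB19b as separate, unrelated strains. Of the 664 genes, 125 are predicted genes, clone names or pseudogenes, and 22 have values identical to those of another listed gene, as *Slfn8* does, so that the locus of their reads is uncertain.

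Of the genes on chromosome 3 that were higher in AXB/BXA in both tests, 4 are described here. *Ifi44l* (chr3:151758737-151762892), a paralogue of the interferon-induced gene *Ifi44*, was chosen after its values were seen because it lies outside the rule for naming genes. It ranged from 0.0346 to 67.8 CPM (median 9.62) in AXB/BXA and from 0 to 0.11 CPM (median 0) in BXD. Of 20 AXB/BXA libraries, 18 lay above the highest BXD library, and both BXA2/PgnJ libraries lay within the BXD range. A/J had 4.94 CPM in the female and 3.29 CPM in the male, DBA/2J 0 CPM in both and C57BL/6J 0.102 and 0 CPM. The fitted log2FC was 9.33 ± 0.34 (SE, adjusted p = 1.26e-39), a size that depends on the prior count because most BXD libraries were at or near 0. With strain as a block it was 7.99 (adjusted p = 4.17e-13).

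The adjacent gene *Ifi44* (chr3:151730922-151749960, GRCm38) was 3.91 to 124 CPM (median 22.9) in AXB/BXA and 2.73 to 21.9 CPM (median 8.34) in BXD, with 11 of 20 AXB/BXA libraries above the highest BXD library. Its log2FC was 1.65 ± 0.19 (adjusted p = 7.87e-11), and 1.41 (adjusted p = 2.69e-09) without the AXB12/PgnJ female. The parental libraries were close to each other, with 11.4 and 8.32 CPM in A/J and 11.8 and 7.58 CPM in DBA/2J. *Ddah1* (chr3:145758675-145894277), which degrades asymmetric dimethylarginine, an inhibitor of nitric oxide synthase, was 8.15 to 33.5 CPM (median 17.3) in AXB/BXA and 1.74 to 21.6 CPM (median 6.63) in BXD. All 20 AXB/BXA libraries lay above the BXD median, and the highest BXD value belonged to the library labelled BXD6/TyJ female, with 18.7 CPM the next. Its log2FC was 1.37 ± 0.17 (adjusted p = 6.11e-09) and 1.33 in females and 1.40 in males.

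*Gbp2b* (chr3:142594847-142619179), an interferon-inducible guanylate-binding GTPase of cell-autonomous defence, was 0.346 to 457 CPM (median 73.6) in AXB/BXA and 0.323 to 123.5 CPM (median 3.41) in BXD. Of the AXB/BXA libraries, 18 lay above the BXD median and 3 above the highest BXD library. The BXD value of 123.5 CPM came from the library labelled BXD6/TyJ female, and the next was 35.8 CPM. A/J had 48.7 and 69.98 CPM, DBA/2J 2.97 and 5.95 CPM and C57BL/6J 2.2 and 0.737 CPM. The log2FC was 3.42 ± 0.41 (adjusted p = 1.07e-09), 3.71 without the libraries labelled BXD6/TyJ female and BXA24/PgnJ male, and 3.19 without the AXB12/PgnJ female.

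**Figure D1:**
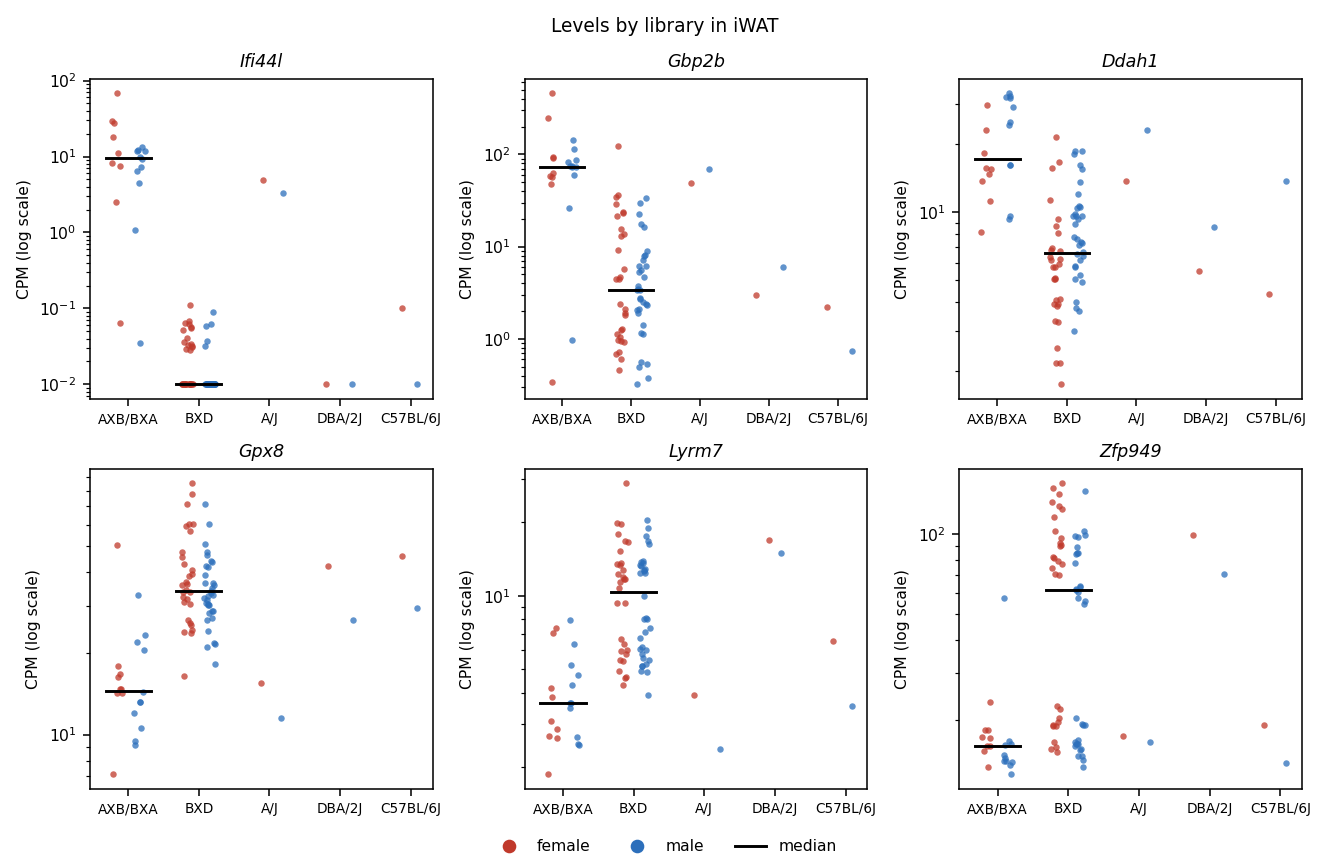
Level of 6 genes in each library, in CPM on a log axis, by AXB/BXA, BXD and parental strain, with females in red, males in blue, the group median as a black line and values under 0.01 CPM drawn at 0.01. *Ifi44l*, *Gbp2b* and *Ddah1* had medians of 9.62, 73.6 and 17.3 CPM in AXB/BXA against 0, 3.41 and 6.63 CPM in BXD, and *Gpx8*, *Lyrm7* and *Zfp949* had lower medians in AXB/BXA.

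Interferons induce a broad set of genes through transcription factors that bind the interferon-stimulated response element (ISRE) in their promoters, and the products restrict viruses and intracellular bacteria. Of 30 interferon-stimulated genes, 12 were higher and 2 lower in AXB/BXA in the main test, and 5 were higher and 1 lower in both tests, with a median log2FC of 0.40 over the 30 against 0.02 over all genes. The shares over all genes were 5.62% higher and 3.59% lower in the main test, and 2.1% and 1.51% in both tests. Higher in both tests were *Ifi44*, *Oas1a* and *Oas1g* (both 0.68), members of the oligoadenylate synthetase family, *Bst2* (0.62), which tethers budding virions, and *Isg15* (0.57), a ubiquitin-like modifier. *Gbp6* was lower (−0.56 ± 0.17, adjusted p = 0.0202). Without the AXB12/PgnJ female, 3 of the 30 were higher and 2 lower in the main test, *Ifi44*, *Oas1a* and *Bst2* remained higher and *Gbp6* lower in both tests, and the median was 0.30. Lymphocyte marker sums were highest in that female, and their part in these differences was not tested.

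*Bst2* was 18.4 to 67.7 CPM (median 30.1) in AXB/BXA and 11.9 to 45.04 CPM (median 22.4) in BXD. *Oas1a* was 4.97 to 35.8 CPM (median 11.2) in AXB/BXA and 3.13 to 20.9 CPM (median 7.34) in BXD. Its log2FC was 0.90 (adjusted p = 0.000773) with AXB strains alone and 0.28 (adjusted p = 0.653) with BXA strains alone. *Isg15* was 4.04 to 18.7 CPM (median 5.89) in AXB/BXA and 2.07 to 13.96 CPM (median 5.07) in BXD. In each of these 3 genes the panels overlapped over most of their range, and the shift of the median was small beside the spread between strains.

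The promoters of *Gbp2b*, *Isg15*, *Oas1a* and *Bst2*, which were higher in both tests and hold the letters of an ISRE, are printed to show where those letters lie. Each sequence is the 250 bases before the start of the RefSeq transcript, in GRCm38.p6, the C57BL/6J reference, 5′ to 3′ on the strand of the gene, with the ISRE letters, TTTC, any 2 bases and TTTC, on either strand in capitals and overlapping matches merged.
Gbp2b, chr3:142594597-142594846, plus strand: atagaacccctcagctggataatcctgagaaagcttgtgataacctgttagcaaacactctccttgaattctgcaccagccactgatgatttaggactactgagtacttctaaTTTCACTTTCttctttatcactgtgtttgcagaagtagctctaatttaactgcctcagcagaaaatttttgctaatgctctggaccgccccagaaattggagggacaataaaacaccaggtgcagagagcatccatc
Isg15, chr4:156200819-156201068, minus strand: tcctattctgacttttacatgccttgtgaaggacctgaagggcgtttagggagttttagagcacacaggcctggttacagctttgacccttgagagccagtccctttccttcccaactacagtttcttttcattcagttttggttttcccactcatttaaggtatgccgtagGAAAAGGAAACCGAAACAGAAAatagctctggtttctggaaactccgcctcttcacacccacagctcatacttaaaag
Oas1a, chr5:120907526-120907775, minus strand: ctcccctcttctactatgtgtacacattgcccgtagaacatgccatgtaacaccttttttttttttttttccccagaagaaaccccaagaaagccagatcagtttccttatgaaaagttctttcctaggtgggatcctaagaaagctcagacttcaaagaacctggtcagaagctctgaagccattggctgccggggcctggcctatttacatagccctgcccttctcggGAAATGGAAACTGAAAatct
Bst2, chr8:71537473-71537722, minus strand: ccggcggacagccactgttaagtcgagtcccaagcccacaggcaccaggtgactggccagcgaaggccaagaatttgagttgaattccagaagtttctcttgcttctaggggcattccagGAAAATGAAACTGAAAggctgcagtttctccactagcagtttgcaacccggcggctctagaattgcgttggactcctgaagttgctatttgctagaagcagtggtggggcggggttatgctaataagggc
The match began 137 bases before the start in *Gbp2b*, and *Isg15* held 3 overlapping matches with the first at 78 bases before the start. Of all 32851 promoter windows, from 250 bases before to 50 bases after a start, 1131 (3.44%) held these ISRE letters, as did 15 of 327 windows (4.59%) of genes higher in both tests and 7 of 250 (2.8%) of genes lower in both tests. Among the interferon-stimulated genes with a window, 14 of 20 held it. The windows of *Ifi44* and *Ifi44l* did not hold these letters. The A/J and DBA/2J sequences of these promoters were not analysed here.

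Other guanylate-binding and innate immune genes were among the 12 with the largest rise in AXB/BXA. *Gbp10* was 4.56 to 185 CPM (median 18.9) in AXB/BXA and 2.3 to 56.7 CPM (median 6.73) in BXD, with the highest BXD value again in the library labelled BXD6/TyJ female and 29.05 CPM the next. Its log2FC was 1.88 ± 0.28 (adjusted p = 5.26e-07), but 2.49 with AXB strains alone and 0.10 (adjusted p = 0.954) with BXA strains alone. The difference between AXB and BXA strains itself was 2.17 ± 0.52 (adjusted p = 0.079). *Gbp10* lies in a run on chromosome 5 (chr5:105115767-105490074) in which 5 of 6 tested genes differed in both tests, namely *Gbp4*, *Gm43302*, *Gbp10*, *Gbp6* and *Lrrc8b*. Near-identical members of the Gbp cluster share reads, so the split between them is uncertain.

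*Tlr1*, which pairs with TLR2 to sense bacterial lipoproteins, was 5.4 to 154 CPM (median 12.8) in AXB/BXA and 0.96 to 71.4 CPM (median 5.28) in BXD, and all 20 AXB/BXA libraries lay above the BXD median. Its log2FC was 1.58 ± 0.39 (adjusted p = 0.00407), and 1.27 (adjusted p = 0.028) without the AXB12/PgnJ female. It did not pass without AXB19a and AXB19b (1.28, adjusted p = 0.0645), with BXA strains alone (1.04, adjusted p = 0.392) or against TyJ strains alone (1.06, adjusted p = 0.284). *Nlrp1b*, an inflammasome sensor, was 1.28 to 20.7 CPM (median 3.56) in AXB/BXA and 0.0621 to 4.8 CPM (median 1.47) in BXD. Its log2FC of 1.34 ± 0.32 (adjusted p = 0.0027) was 1.01 (adjusted p = 0.0311) without that female. *Nlrp1b* did not pass with BXA strains alone (1.09, adjusted p = 0.235), against TyJ strains alone (0.8, adjusted p = 0.131) or with counts summed per strain (1.24, adjusted p = 0.0726). C57BL/6J had 3.83 and 4.64 CPM of *Nlrp1b*, above A/J (1.55 and 1.26 CPM) and DBA/2J (0.347 and 0.717 CPM). Of 14 NLR and inflammasome genes, 2 were higher and none lower in the main test, and *Nlrp1b* alone in both. Of 25 complement genes, 5 were higher in the main test and none in both tests (median log2FC 0.19), and without the AXB12/PgnJ female 2 were higher. Both lists stand beside 5.62% of all genes higher in the main test and 2.1% in both tests. No member of the lists of 19 macrophage genes, 12 MHC class II genes and 18 progenitor and matrix genes passed the main test, with medians of 0.04, 0.34 and −0.05.

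MHC class I molecules present peptides that TAP imports and tapasin helps load. Of 19 genes of this group, 8 were higher and none lower in AXB/BXA, and *H2-K1*, *Tap2* and *Tapbp* were higher in both tests, with a median log2FC of 0.28 over the 19. Among all genes, 5.62% were higher in the main test and 2.1% in both tests. *H2-K1* was 404 to 2540 CPM (median 1330) in AXB/BXA and 247 to 1900 CPM (median 901) in BXD, a log2FC of 0.60 ± 0.16 (adjusted p = 0.00845), and 0.50 (adjusted p = 0.0552) without AXB19/PgnJ. With BXA strains alone its log2FC was 0.54 (adjusted p = 0.241). *Tap2* had a log2FC of 0.48 ± 0.09 (adjusted p = 0.00019) and *Tapbp* of 0.28 ± 0.05 (adjusted p = 7.63e-05). For *Tap2* it was 0.71 (adjusted p = 7.59e-07) with AXB strains alone and 0.07 (adjusted p = 0.865) with BXA strains alone. The immunoproteasome subunits *Psmb8* (0.51) and *Psmb9* (0.60) passed in the main test, with adjusted p of 0.0962 and 0.0936 with strain as a block. Without the AXB12/PgnJ female, 4 of the 19 were higher in the main test and the same 3 in both tests. Without AXB19a and AXB19b, 7 were higher in the main test, and *Tap2* and *Tapbp* alone in both tests. *H2-K1*, *Tap2* and *Tapbp* lie in a run of 9 genes higher in both tests, of 91 tested, at chr17:33915899-35235792. H2 genes are polymorphic between these parents and similar to each other, and quantification used the C57BL/6J transcripts, so reads of other alleles can be lost or assigned elsewhere, which was not tested.

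Among 31 rows of glutathione, NADPH and detoxification enzymes, 5 were higher and 1 lower in the main test, and *Nnt*, *Gsta3* and *Mgst2* (0.38) were higher in both. The shares over all genes were 5.62% higher and 3.59% lower in the main test, and 2.1% higher in both. *Nnt*, the nicotinamide nucleotide transhydrogenase of the inner mitochondrial membrane, is truncated in C57BL/6J by a deletion within the gene. The files list it under 2 Ensembl identifiers that share reads. ENSMUSG00000116207 was 17 to 43.6 CPM (median 25.8) in AXB/BXA and 1.27 to 30.5 CPM (median 13.5) in BXD, with all 20 AXB/BXA libraries above the BXD median and a log2FC of 1.02 ± 0.18 (adjusted p = 1.99e-05). Summed over both identifiers, *Nnt* was 27.2 to 52.7 CPM (median 36.6) in AXB/BXA and 11.4 to 43.9 CPM (median 20.6) in BXD. The sum was 42.8 and 43.2 CPM in A/J, 16.8 and 21.5 CPM in DBA/2J and 13.97 and 20.5 CPM in C57BL/6J, so the A/J libraries were the highest of the parents.

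*Gsta3*, a glutathione S-transferase, was 19 to 109 CPM (median 53.3) in AXB/BXA and 4.18 to 66.9 CPM (median 22.5) in BXD, and its log2FC was 1.16 ± 0.21 (adjusted p = 4.29e-05). It was 36.3 and 70.6 CPM in A/J and 58.6 and 49.3 CPM in C57BL/6J, against 8.1 and 2.95 CPM in DBA/2J. *Gpx8*, a glutathione peroxidase of the endoplasmic reticulum, was lower, with 7.12 to 50.2 CPM (median 14.5) in AXB/BXA and 16.5 to 85.2 CPM (median 33.9) in BXD. In all, 13 AXB/BXA libraries lay below the lowest BXD library, which was the one labelled BXD6/TyJ female, and the next BXD value was 18.2 CPM. The log2FC of *Gpx8* was −1.12 ± 0.15 (adjusted p = 2.26e-08), and A/J had 15.5 and 11.5 CPM against 42 and 26.5 CPM in DBA/2J and 45.7 and 29.4 CPM in C57BL/6J.

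Few mitochondrial transcripts passed the tests. Of 13 mitochondrially encoded mRNAs, *mt-Nd3* alone passed, lower in AXB/BXA in both tests. The log2FC of all 13 lay below 0, from −0.92 to −0.11, with a median of −0.20. Among all genes, 3.59% were lower in the main test and 1.51% in both tests. *mt-Nd3*, a subunit of complex I, was 111.1 to 803 CPM (median 394) in AXB/BXA and 46.6 to 2020 CPM (median 640) in BXD, a log2FC of −0.92 ± 0.24 (adjusted p = 0.00769). It did not pass both tests without the AXB12/PgnJ female or without AXB19a and AXB19b. Nor did it pass with BXA strains alone (−0.48, adjusted p = 0.562) or against RwwJ strains alone (−0.68, adjusted p = 0.0573). With limma on log2(TPM + 1) it was −0.81 (adjusted p = 0.0759). As a percentage of the 13 mRNAs its median was 0.238 in AXB (0.114 to 1.0), 0.874 in BXA and 0.764 in BXD strains. In the parents it was 0.00899 and 0.374 in A/J, 0.251 and 0.381 in DBA/2J and 0.896 and 1.09 in C57BL/6J. The difference between AXB and BXA in CPM was −0.88 ± 0.36 (adjusted p = 0.335). None of 36 nuclear-encoded subunits of complex I (median log2FC −0.07) and none of 45 subunits of complexes II to V (median −0.05) differed between the panels. *Lyrm7*, an assembly factor that inserts the Rieske protein into complex III, was 1.86 to 7.96 CPM (median 3.64) in AXB/BXA and 3.93 to 28.8 CPM (median 10.4) in BXD. All 20 AXB/BXA libraries lay below the BXD median of *Lyrm7*, 12 of them below the lowest BXD library, and its log2FC was −1.36 ± 0.19 (adjusted p = 1.19e-07).

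Among genes of adipocyte metabolism on the lists, *Hsd11b1* was the one that passed both tests. None of 14 lipolysis genes and none of 16 insulin and glucose uptake genes passed the main test. *Mogat1* (0.48) and *Mogat2* (0.82), acyltransferases of triglyceride synthesis, were the called members of 18 uptake and esterification genes, and *Srebf1* (0.35) was the called member of 17 lipogenesis genes. With strain as a block their adjusted p were 0.149, 0.419 and 0.348, and without the AXB12/PgnJ female *Mogat1* passed both tests. These called members were all higher, as were 5.62% of all genes in the main test, so 1 or 2 members do not by themselves set these lists apart. Without the AXB12/PgnJ female, 4 of the 18 and 2 of the 17 were higher in the main test, beside 851 of 18375 genes. Of 14 adipogenic transcription factors, 3 were higher in the main test and none in both tests (median log2FC 0.05). Without that female 3 were higher, and *Klf15* passed both tests. *Adipoq* was 296 to 3010 CPM (median 1850) in AXB/BXA and 459 to 3320 CPM (median 1720) in BXD, and *Lep* 171 to 5360 CPM (median 1450) against 17.8 to 5710 CPM (median 1530). Neither hormone passed the test, with log2FC of 0.12 ± 0.13 and 0.20 ± 0.31. Of 14 adipokine genes tested, 1 was higher and 1 lower in the main test, and none passed both tests. *Hsd11b1*, which regenerates active glucocorticoid in adipocytes, was 30.3 to 176 CPM (median 67.4) in AXB/BXA and 28.1 to 339 CPM (median 106) in BXD, a log2FC of −0.72 ± 0.19 (adjusted p = 0.00721). It did not pass without AXB19a and AXB19b (−0.63, adjusted p = 0.0508), with AXB strains alone (−0.6, adjusted p = 0.116) or with BXA strains alone (−0.92, adjusted p = 0.053). The sign of A/J minus DBA/2J (0.63) was opposite to that of the panels. Of 11 genes of glucocorticoid activation and response, 2 were higher in the main test and *Hsd11b1* alone was lower, with a median log2FC of 0.25. Among all genes, 5.62% were higher and 3.59% lower in the main test. *Pla2g2e*, a secreted phospholipase A2, was 1.24 to 14.8 CPM (median 6.69) in AXB/BXA and 0.0288 to 10.01 CPM (median 1.39) in BXD, a log2FC of 1.53 ± 0.35 (adjusted p = 0.0015).

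The median log2FC of 12 thermogenic genes was −0.83, with *Dio2* (−1.36 ± 0.38) and *Prdm16* (−0.44 ± 0.12) lower in the main test (both adjusted p = 0.013) and none in both tests. Among all genes, 3.59% were lower in the main test. *Ucp1*, the uncoupling protein of brown and beige adipocytes, was 0.187 to 159 CPM (median 4.26) in AXB/BXA and 0 to 2640 CPM (median 5.51) in BXD, and its log2FC of −1.29 ± 0.86 did not pass (adjusted p = 0.403). With strain as a block the adjusted p was 0.276 for *Dio2* and 0.0775 for *Prdm16*. The summed brown adipocyte markers were 6.96 to 294 CPM in AXB/BXA and 15.1 to 3640 CPM in BXD, with medians of 44.5 and 57.3 CPM.

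**Figure D2:**
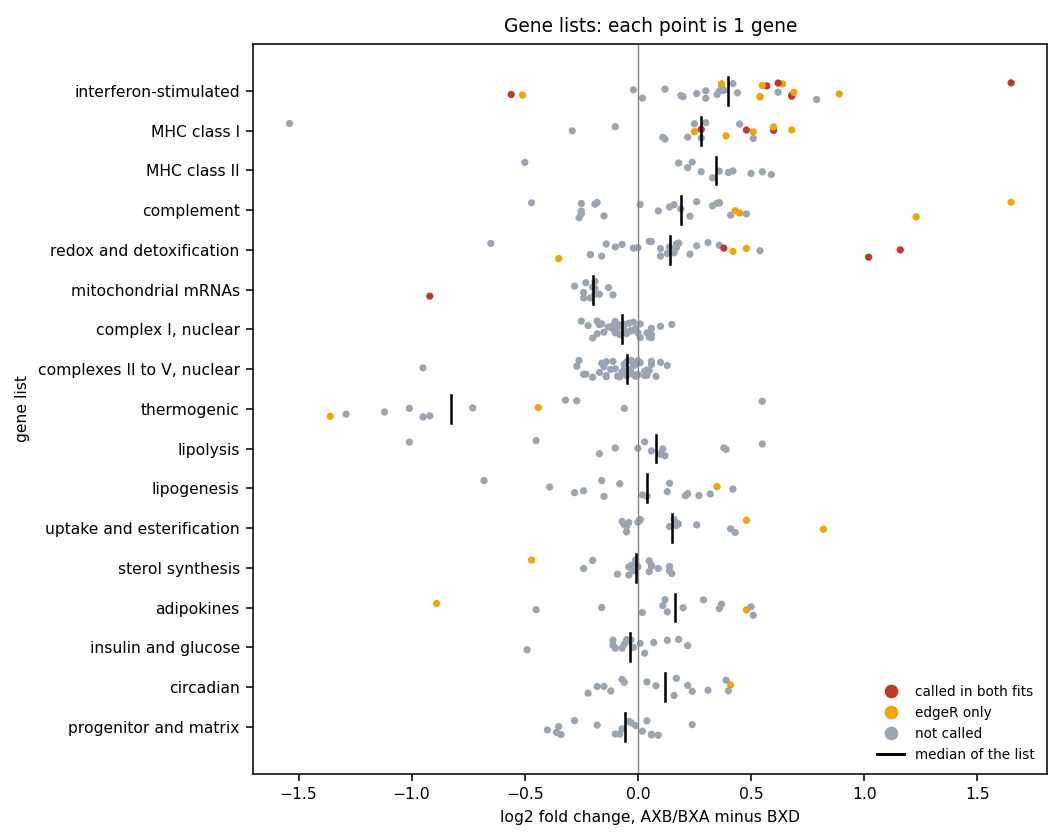
log2FC (AXB/BXA minus BXD) of the members of each gene list, 1 point per gene, with genes called in both tests in red, genes called in the main test alone in orange, other genes in grey and the list median as a black line. Medians were 0.40 for interferon-stimulated genes, 0.28 for MHC class I, −0.83 for thermogenic genes and −0.07 for nuclear-encoded complex I subunits.

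The remaining genes with the largest rise in AXB/BXA belonged to different families. *Abhd1*, of the alpha/beta-hydrolase fold family, was 2.33 to 27.5 CPM (median 3.4) in AXB/BXA and 1.7 to 4.48 CPM (median 2.78) in BXD, with 8 AXB/BXA libraries above the highest BXD library (log2FC 1.71 ± 0.17, adjusted p = 2.26e-13). Its medians were close and its difference came from the upper part of the AXB/BXA range. *Vmn2r99*, a vomeronasal receptor gene, had medians of 4.46 and 1.07 CPM and a log2FC of 2.75 ± 0.26 (adjusted p = 7.29e-14), with 6 AXB/BXA libraries above the highest BXD library. That BXD library was the one labelled BXD6/TyJ female (7.38 CPM), and the next was 2.56 CPM. Medians were 6.31 CPM in AXB and 1.29 CPM in BXA strains. The log2FC was 1.61 (adjusted p = 0.000214) with BXA strains alone and 1.87 (adjusted p = 4.39e-08) without AXB19a and AXB19b. *Aox3*, an aldehyde oxidase, had medians of 2.82 and 0.716 CPM and a log2FC of 1.95 ± 0.35 (adjusted p = 3.54e-05), and all 20 AXB/BXA libraries lay above the BXD median. *Itih2*, a heavy chain of the inter-alpha-trypsin inhibitors, and *Disp2*, of the Dispatched family, had log2FC of 1.84 ± 0.32 and 1.32 ± 0.20. Without AXB5/PgnJ, *Itih2* had a log2FC of 0.77 and did not pass (adjusted p = 0.109).

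Among the 12 genes with the largest fall, *Zfp949*, a zinc-finger gene, showed a division of the BXD strains. BXD libraries fell into 27 with at most 22.6 CPM and 37 with at least 54.5 CPM, and none lay between. AXB/BXA libraries were 12.5 to 57.2 CPM (median 15.9), where the highest value belonged to the library labelled BXA24/PgnJ male and the next was 23.4 CPM. A/J (17.4 and 16.6 CPM) and C57BL/6J (19.1 and 13.8 CPM) were at the lower BXD level and DBA/2J (98.8 and 70.7 CPM) at the higher one. The log2FC was −1.71 ± 0.29 (adjusted p = 1.5e-05), and −1.92 without the libraries labelled BXD6/TyJ female and BXA24/PgnJ male. *Cldn34c1*, a claudin family gene on the X chromosome, was 4.27 to 9.94 CPM in 63 BXD libraries and 0.361 CPM in the library labelled BXD6/TyJ female. In AXB/BXA it was 0.241 to 7.96 CPM (median 1.36), with 0.66 and 0.258 CPM in A/J, 4.81 and 5.64 CPM in C57BL/6J and 7.13 and 4.82 CPM in DBA/2J.

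*Cd300ld4*, of the CD300 family of myeloid surface receptors, was at 0 in both A/J libraries, 0 to 7.95 CPM (median 1.02) in AXB/BXA and 0.522 to 24.1 CPM (median 5.02) in BXD, with 9 AXB/BXA libraries below the lowest BXD library. Its log2FC was −2.16 ± 0.49 (adjusted p = 0.00124). *Mill2*, an MHC class I-like gene outside the MHC, had medians of 11.4 and 23.3 CPM and 12 AXB/BXA libraries below the lowest BXD library (log2FC −1.06 ± 0.17, adjusted p = 5.38e-06). *Slfn8*, of the Schlafen family, had medians of 2.33 and 10.3 CPM and also 12 AXB/BXA libraries below the lowest BXD library (log2FC −1.39 ± 0.31, adjusted p = 0.00123). *Slfn8* lies in a run at chr11:82802449-83429455 where 8 of 19 tested genes differed in both tests. *Camk2b*, a subunit of calcium/calmodulin-dependent kinase II, had medians of 1.47 and 6.24 CPM, and all 20 AXB/BXA libraries lay below the BXD median (log2FC −1.78 ± 0.25, adjusted p = 6.24e-08).

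*Tceal5*, *Ncan* (neurocan) and *Isoc2b* had log2FC of −2.31 ± 0.42, −1.71 ± 0.37 and −1.08 ± 0.28, with panel medians of 0.428 and 1.63, 7.25 and 24.2, and 1.7 and 5.47 CPM. Without AXB19a and AXB19b, *Isoc2b* did not pass (−0.86, adjusted p = 0.0563). *Kcnj15*, an inwardly rectifying potassium channel, was 3.65 to 62.96 CPM (median 13.9) in AXB/BXA and 7.1 to 133.2 CPM (median 36.1) in BXD (log2FC −1.32 ± 0.24, adjusted p = 7.05e-05). Its parents were close, with 24.6 and 26.3 CPM in A/J and 17.8 and 41.5 CPM in DBA/2J, whereas C57BL/6J had 45.4 and 69.5 CPM. With BXA strains alone its log2FC was −0.73 (adjusted p = 0.277).

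Of the genes that differed in both tests, 600 of 664 (90.4%) had the sign of the panel difference also in A/J minus DBA/2J, against 1348 of 1692 (79.7%) of those in the main test and 10127 of 18375 (55.1%) of all genes tested. The 4 libraries of these parents were not used to test the panels, although they share 1 estimate of the spread with them. The median parental difference in the direction of the panel was 0.55 for the 664 genes and 0.05 for all genes. All 24 named genes with the largest change had the same sign in both, but in *Gbp10* (0.02), *Ifi44* (0.04) and *Kcnj15* (−0.03) the parental log2FC was close to 0. With 2 libraries a parent, 15 genes (0.0816%) passed the test of A/J minus DBA/2J, 4 higher (0.0218%) and 11 lower (0.0599%) in A/J. Of the 15, 7 also differed between the panels in both tests and with the same sign, namely *Ifi44l*, *Dnajc10* and 5 predicted or unnamed genes. *Dnajc10*, a disulfide reductase of the endoplasmic reticulum, was 39.6 and 39.5 CPM in A/J and 105.9 and 104.1 CPM in DBA/2J, and its median was 70.05 CPM in AXB/BXA and 94.3 CPM in BXD (panel log2FC −0.63 ± 0.09, adjusted p = 4.76e-08).

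**Figure D3:**
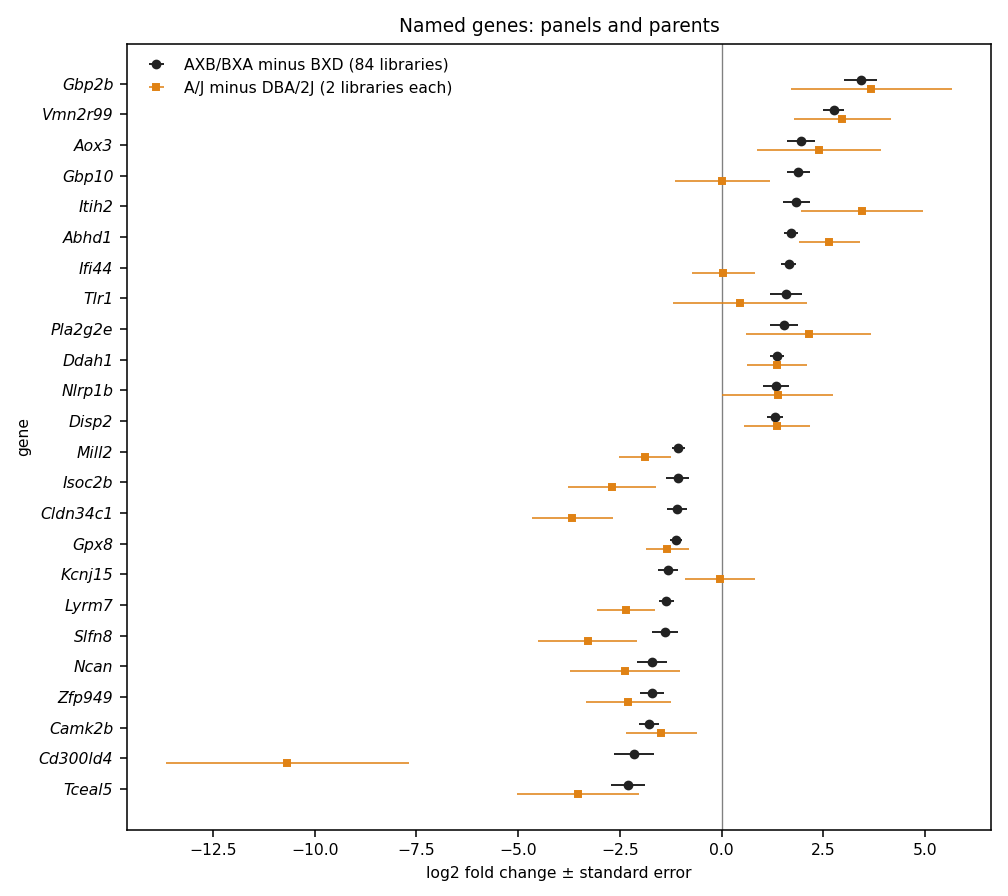
log2FC with its SE of the 24 genes with the largest change in AXB/BXA minus BXD, beside the log2FC of A/J minus DBA/2J for the same genes. Both had the same sign in all 24 genes, and *Gbp10*, *Ifi44* and *Kcnj15* had parental differences of 0.02, 0.04 and −0.03, whereas the parental value of *Cd300ld4* has no fixed size because both A/J libraries were at 0.

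The level of a parent was not always found in its panel. *Dysf*, dysferlin, which takes part in membrane repair and carries a loss-of-function insertion in A/J, was 12.6 and 13.2 CPM in A/J and 66.8 and 76.9 CPM in DBA/2J. AXB/BXA libraries were 28.8 to 173 CPM (median 68.5) and BXD libraries 25.9 to 118.3 CPM (median 63.3), so no AXB/BXA library was as low as A/J, and the panels did not pass the test (log2FC 0.18 ± 0.13, adjusted p = 0.444). *Rps3a1*, a ribosomal protein gene, was 66.8 and 46.1 CPM in A/J, 50.6 to 1200 CPM (median 534) in AXB/BXA and 274 to 1220 CPM (median 541) in BXD. In contrast to *Dysf*, the A/J level of *Rps3a1* was found in the panel, where 4 AXB/BXA libraries lay below the lowest BXD library. Ribosomal protein genes have many processed pseudogenes that share their reads, and the source of these counts is uncertain.

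By chromosome, the share of tested genes that differed in both tests was 6.22% (65 of 1045) on chromosome 5, 5.04% on chromosome 12 and 4.76% on chromosome 11, against 3.61% of all genes. It was 1.82% on chromosome 6 and 2.61% on the X chromosome, and 0 of 22 genes differed on the Y chromosome. Genes that differed lay near each other, in that 409 of 647 with a position (63.2%) had another within 1 Mb, against 8233 of 17462 other genes (47.1%). Joined at gaps of up to 1 Mb they formed 25 runs of at least 5 genes, which held 194 genes. A run starts and ends with a gene that differed. Its share is therefore raised by construction and is not comparable with the 3.61% of all genes. The longest run, of 18 of 109 tested genes at chr8:69791163-72758201, held *Ncan*, which was lower, and *Bst2*, which was higher.

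**Figure D4:**
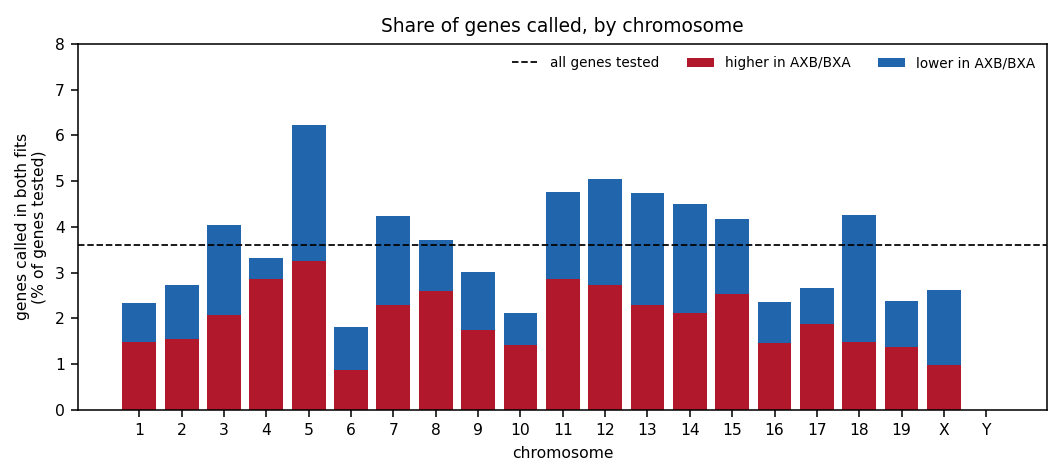
Percentage of tested genes on each chromosome that differed between AXB/BXA and BXD in both tests, as stacked bars of genes higher and genes lower in AXB/BXA, with the percentage over all genes as a dashed line (3.61). Chromosome 5 was highest among the autosomes (6.22%) and chromosome 6 lowest (1.82%).

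The panel difference was also compared between the sexes. The interaction of panel with sex passed in 43 genes (0.234%), in 33 of which (0.18%) the log2FC of AXB/BXA minus BXD was greater in males and in 10 (0.0544%) greater in females. This test treats the female and the male of a strain as unrelated. When they were compared within the strain, over 9 AXB/BXA and 26 BXD strains with both sexes, edgeR called no gene. In that fit 627 of 18375 genes had an unadjusted p under 0.05. In all 84 libraries, limma with strain as a random block also called none, with 622 such genes. The values that follow are therefore those of the first test alone. In all 10 of the latter, among them *Fpr2* (−4.96), *Acod1* (−6.63) and *Clec4e* (−5.18), myeloid genes of the inflammatory response, the AXB12/PgnJ female was the highest of the 84 libraries. *Acod1* was 92.8 CPM in that female and at most 0.791 CPM in the other AXB/BXA libraries. Without the AXB12/PgnJ libraries, the interaction passed in 22 genes with a greater log2FC in males, all among the 43, and in none with a greater log2FC in females. Of 14 acute-phase and inflammatory genes, 2 were higher in the main test and none in both tests (median log2FC 0.13). These were *Saa3* (1.87) and *Il1b* (1.26), with log2FC of 0.31 and −0.66 without the AXB12/PgnJ female, where none of the 14 passed. The share over all genes was 5.62% higher in the main test and 2.1% in both tests.

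Within the A/J panel, 12 libraries of 6 AXB strains were compared with 8 libraries of 5 BXA strains, reciprocal crosses of the same parents. In this test 48 genes (0.261%) passed, 9 higher (0.049%) and 39 lower (0.212%) in AXB. With strain as a block as well, *Gbp11* (2.20) and the clone-named gene *AC124513.1* (9.96), named after their values were seen, were higher and 8 genes were lower. *Map1a*, a microtubule-associated protein gene, was 6.63 to 18.9 CPM (median 10.3) in AXB and 11.8 to 65.9 CPM (median 44.2) in BXA, a log2FC of −1.72 ± 0.23 (adjusted p = 0.00201). *Ryr2*, the calcium-release channel of the sarcoplasmic reticulum, and *Sez6l* had log2FC of −1.74 ± 0.23 and −2.69 ± 0.40 (adjusted p = 0.00201 and 0.00536). These 3 genes did not pass the test of AXB/BXA against BXD. Without AXB19a and AXB19b, 2 genes were higher and 2 lower in AXB.

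The 2 origins in each panel can be read beside each other. Against BXD, BXA strains alone gave 482 genes higher and 189 lower, and AXB strains alone gave 1054 and 650. Of the 664 genes, 187 passed in the same direction with BXA strains alone and 533 with AXB strains alone, which have 12 of the 20 libraries. Against TyJ strains alone 312 of the 664 passed and against RwwJ strains alone 628, with 20 and 44 BXD libraries. The numbers of libraries differ, so these counts do not rank the origins.

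**Figure D5:**
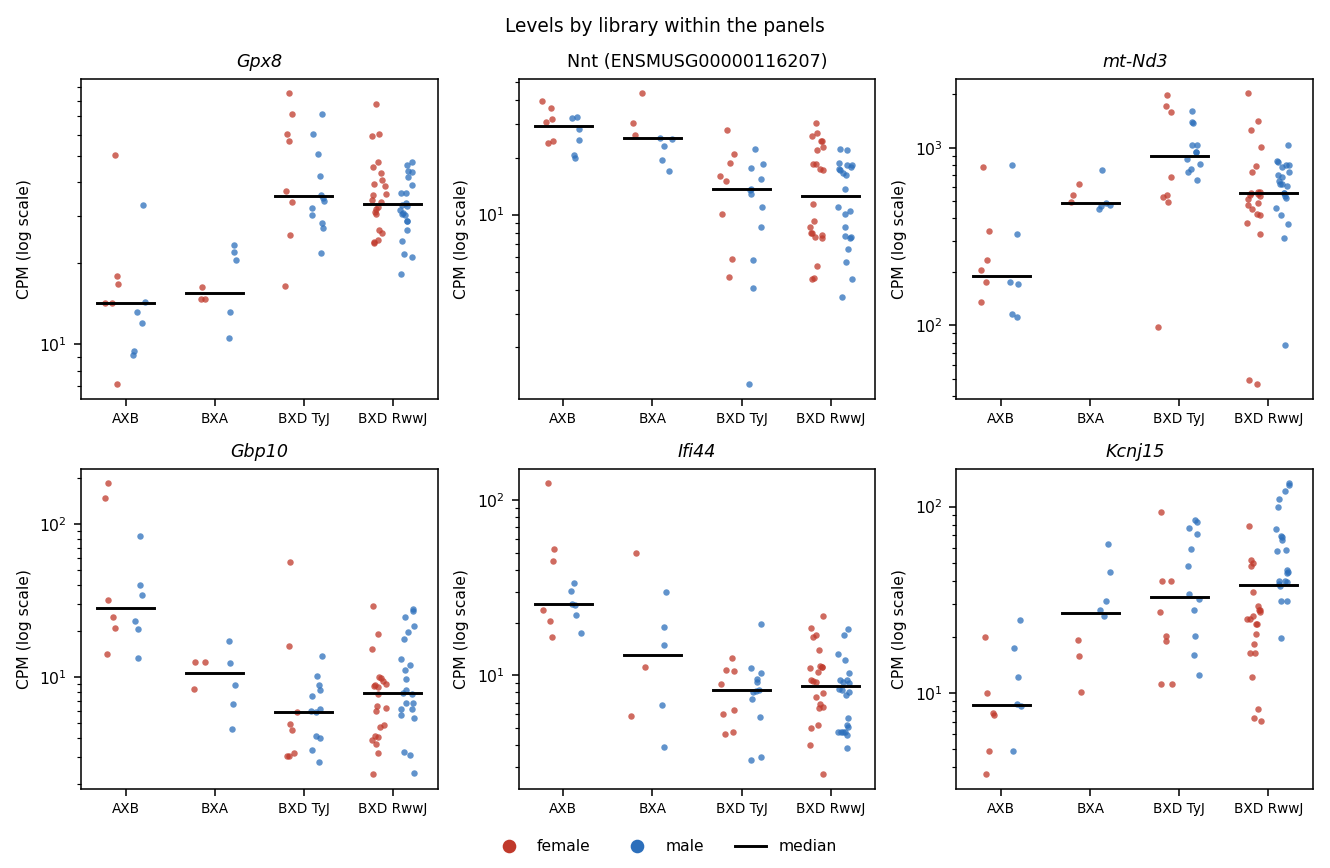
Level of 6 genes in each library, in CPM on a log axis, by AXB, BXA, BXD TyJ and BXD RwwJ strains, with females in red, males in blue and the group median as a black line. The medians of *Gbp10* were 28.5 CPM in AXB and 10.6 CPM in BXA strains, and those of *mt-Nd3* 190 and 490 CPM.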

How the data were processed

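iWAT RNA was measured in 1 library per mouse. The authors prepared stranded, paired-end mRNA libraries (KAPA), quantified them with kallisto 0.46.1 against Ensembl 97 transcripts of GRCm38 (mm10) and obtained gene-level values with tximport. The estimated counts, as deposited, carry no normalization between libraries, and 30% of those used are not whole. The TPM table, as deposited, is scaled for length and depth. Columns of 49 libraries of other strains were not used. The index holds C57BL/6J sequence, so reads of A/J and DBA/2J alleles may be assigned less often, which was not tested.

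Estimated counts were rounded, and genes with low counts were removed with filterByExpr. edgeR 4.0.16 in R 4.3.3 was used with TMM scaling and the quasi-likelihood test of panel with sex as a covariate, and p-values were adjusted by Benjamini and Hochberg over 18375 genes. The second test was limma 3.58.1 with voom and strain as a random block, where AXB19 and its sublines counted as separate strains. DESeq2 1.42.0 was an alternative. The interaction, the parental contrast (in a fit of 90 libraries) and AXB against BXA used the same edgeR model. Adjusted p-values in the text are those of edgeR unless the strain block is named. That test counts the female and the male of a strain as unrelated, so its p-values can overstate the evidence for a panel difference. The strain block moved them in either direction, from 2.17e-05 to 0.0183 for *Itih2* and from 0.00131 to 2.64e-07 for *Cldn34c1*. CPM are TMM-scaled. Methods were tested on simulated counts in which all strains were unrelated, unlike AXB19 and its sublines, and the outcome is not used here. Each strain gave at most 1 library per sex, and p-values measure the spread between these mice.

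Genes were named by rule: the 12 largest changes in each direction among genes in both tests that also had p under 0.05 in each sex, a mean of at least 2 CPM and a symbol of a characterised gene, then up to 2 members of each list in both tests, marker and allele genes whose levels are given, and the 3 smallest p of the interaction and of AXB against BXA. Libraries, gene lists and tests were chosen with earlier results of these data known. Of 36558 listed genes, 35935 were matched to GENCODE M21. The parent-telling genes compare log2(CPM + 0.25) at a margin of 1.5. The alternatives are given in the closing section. Results for a few genes are not reported here.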

Additional observations from a re-analysis of the deposited data

Results flagged for a closer look

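Each named gene was examined in the 9 AXB/BXA females for a highest or lowest library whose gap to the next took up more of the group's range than Dixon's 95% critical value allows. This held for 19 of 40 named genes. Chance flags about 1 in 20 groups of values with a normal spread, but CPM are skewed and these genes were chosen for large differences, so that rate is no yardstick for the 19. *Fpr2*, *Acod1* and *Clec4e* were named for an interaction that did not pass without AXB12/PgnJ, and *Ifi44l* was named with its values known. The AXB12/PgnJ female accounted for 7 of the 19, with 124 CPM of *Ifi44*, 154 CPM of *Tlr1*, 20.7 CPM of *Nlrp1b*, 115 CPM of *Fpr2*, 92.8 CPM of *Acod1*, 175 CPM of *Clec4e* and 67.8 CPM of *Ifi44l*. The AXB5/PgnJ female was highest in *Itih2* (33.4 CPM), *Ncan* (13.4 CPM), *Gpx8* (50.2 CPM) and *Hsd11b1* (154 CPM). The AXB13/PgnJ female was highest in *Aox3* (16.2 CPM) and *Zfp949* (23.4 CPM), and the AXB19a/PgnJ female in *Vmn2r99* (29.4 CPM) and *Cd300ld4* (7.95 CPM). The BXA8/PgnJ female was highest in *Disp2* (37.6 CPM), *Tceal5* (1.63 CPM) and *Sez6l* (4.78 CPM). The AXB19b/PgnJ female was lowest in *Camk2b* (0.294 CPM).

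The panel difference in males minus that in females was −4.96 for *Fpr2*, −6.63 for *Acod1* and −5.18 for *Clec4e* on the log2 scale, by the edgeR interaction test. Each was highest in the AXB12/PgnJ female, and without the AXB12/PgnJ libraries no interaction of this sign passed. Compared within strains, the values were −0.8, −1.62 and −0.94, and none passed (adjusted p = 1.0).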

How the results depend on the processing

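The 1033 genes higher and 659 lower in AXB/BXA became 572 and 429 with at least 10 counts in every library (fewer genes tested), 430 and 295 with strain as a block, 421 and 248 with counts summed per strain, 192 and 126 in females, 275 and 151 in males, 482 and 189 with BXA strains alone, 411 and 280 with limma on log2(TPM + 1), and 393 and 319 on log2(TPM + 0.1). Against TyJ strains alone, 394 were higher. Leaving out 1 AXB/BXA strain at a time gave 727 to 1084 higher and 475 to 822 lower. Without a filter on low counts they were 1233 and 787, with DESeq2 951 and 812, and with library totals 841 and 716. Of the 664 genes in both tests, DESeq2 called 650 and counts summed per strain 383. Among 34 named genes in both tests, 1041 of 1111 alternative values kept direction and call, 70 lost the call, 18 of these with BXA strains alone, and none changed sign.

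The interaction counts of 33 and 10 became 50 and 17 without a filter and 11 and 0 with at least 10 counts per library, and without AXB12/PgnJ the 10 became 0. The 4 and 11 genes of the parental contrast became 27 and 34 with DESeq2 and 0 and 0 with the 4 parental libraries alone, where 1 residual degree of freedom remains. The 9 and 39 of AXB against BXA became 140 and 230 with DESeq2, 2 and 10 with strain as a block, and 2 and 2 without AXB19a and AXB19b. *Fpr2*, *Acod1* and *Clec4e* were 2.74, 4.39 and 2.75 in the main test. *Fpr2* became −0.4 with DESeq2, 0 with strain as a block, −0.6 in males, −1.46 with BXA strains alone, −0.03 on log2(TPM + 0.1), −0.4 without the AXB12/PgnJ female, and −0.39 to 2.95 when a strain was left out. *Clec4e* became −0.49, −0.77 in males, −0.42 with BXA strains alone, −0.1 on log2(TPM + 0.1), −0.49 without that female, and −0.43 to 2.95 when a strain was left out. *Acod1* was −0.45 with BXA strains alone. Uncalled in the main test, *Map1a* (−0.1) became 0.08 without AXB19a and AXB19b, 0.65 with BXA strains alone and 0.17 against TyJ strains, *Ryr2* (−0.28) 0.51 with BXA strains alone, and *Sez6l* (0.54) −1.04 with AXB strains alone. The causes were not tested. With strain as a replicate block, the interaction counts became 0 and 0, in edgeR within strains and in limma with a random block. AXB/BXA against BXD cannot be paired, since each strain belongs to 1 panel. Fits without the AXB12/PgnJ female, the AXB19b/PgnJ female or the libraries labelled BXD6/TyJ female and BXA24/PgnJ male and the blocked interaction fits were added after seeing the data, and panel counts stayed between 851 and 1101 higher and 600 and 703 lower.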

Other observations

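Further genes differed between the parents. *Rpl35a*, a ribosomal protein gene of the large subunit, was 73.7 and 37.7 CPM in A/J and 44.5 to 388 CPM (median 202) in AXB/BXA, where the lowest library, the BXA11/PgnJ male, was followed by 145 CPM. BXD libraries were 122.8 to 415 CPM (median 210). *Ttf2*, a transcription termination factor, was 6.32 and 8.28 CPM in A/J and 16.6 and 19.9 CPM in DBA/2J, 6.11 to 23.03 CPM in AXB/BXA and 9.61 to 19.7 CPM in BXD. In all, 5 AXB/BXA libraries lay below the lowest BXD library, and its panel difference of −0.20 ± 0.08 did not pass (edgeR adjusted p = 0.0825). The gene listed only as ENSMUSG00000116267, singled out after its values were seen, had a median of 32.03 CPM in AXB/BXA and 0 CPM in BXD, and 18 of 20 AXB/BXA libraries lay above the highest BXD library, with 28.0 and 65.5 CPM in A/J and at most 0.0737 CPM in the other parents.

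The males of AXB19a/PgnJ and AXB19b/PgnJ were close, with a correlation of 0.80 between their deviations over the 664 genes that differed in both tests, whereas the AXB19b/PgnJ female was closest to the AXB19/PgnJ male (0.51). These correlations are descriptions over genes, which are not independent.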
